A study of Danio rerio with 60 samples.

Results

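The cytochrome P450 superfamily was followed in zebrafish larvae exposed to raloxifene, a selective estrogen receptor modulator, or to resorcinol, a benzenediol. Its members were every gene whose symbol begins with cyp and a digit, in any case, without CYP19A1, which gave 85 of the 27899 genes in the tables of both compounds. The series addresses the toxicity of 2 endocrine disrupting chemicals, sets each dilution against its vehicle control and models the dose at which expression departs from it. Each sample was a pool of 20 whole larvae of the AB/Tub strain, exposed from 72 to 120 hours post fertilization, so no organ was separated. Raloxifene was given at 0.00201, 0.0201, 0.201, 2.01 and 20.1 µM, with a 0.5% carrier control. Resorcinol was given at 0.0405, 0.405, 4.05, 40.5 and 405 µM, with a 1% carrier control. What the carrier was is not said in the labels, and the titles of the dosed pools give no carrier percent. Each of the 12 groups holds 5 pools numbered 1 to 5. The titles of the dosed resorcinol pools carry the word Ralox, so these were grouped by their descriptions, which name resorcinol and the dilution.

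Cytochrome P450 enzymes bind haem and insert 1 oxygen atom into their substrate, with electrons passed on by P450 oxidoreductase in the endoplasmic reticulum or by ferredoxin in mitochondria. Families 1 to 3, and part of family 4, act mainly on foreign compounds and fatty acids and are abundant in liver and gut, where several are switched on by the aryl hydrocarbon receptor or by nuclear receptors when a chemical enters. The other families make or break down cholesterol, bile acids, steroid hormones, retinoic acid and vitamin D. In pools of whole larvae, more cells of a type and more RNA per cell cannot be told apart.

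Values are normalized counts, which are reads divided by 1 factor per library and are not corrected for gene length, so no levels are compared between genes. Recovered library depth was 7.44 to 10.98 M reads for raloxifene. It was 7.78 to 12.13 M for resorcinol, except 405 µM replicate 1 with 30.74 M. Replicates 2 to 5 at 405 µM had 9.48, 11.31, 12.13 and 8.98 M. The resorcinol control libraries had 7.92, 8.32, 8.35, 8.32 and 9.15 M in replicates 1 to 5, so depth was not even between these groups. All 85 members were in both tables. A level of at least 10 in at least 5 libraries was reached by 68 of them in the raloxifene table and by 69 in the resorcinol table. The 16 members under this limit in both tables included both CYP11A1 genes, cyp17a2 and cyp21a2, which belong to steroid hormone synthesis, as well as CYP1B1, CYP27B1, 2 of the 3 CYP8B1 genes and cyp4f3. The remaining 7 were cyp2aa9, cyp2k22, cyp2k31, cyp2x10.1, cyp2x10.2, cyp2x6 and cyp46a1.5, and cyp2aa8 was under the limit in the raloxifene table alone. Members under the limit had means of at most 6.22. Changes are given as log2 of the normalized count plus 1, which understates the change of low genes. A gene was called at an adjusted p below 0.05 over all genes in limma. Pools with the same replicate number deviated together, so each result is given without and with the replicate number as a term of the fit (a block), which leaves the fold change as it is and changes its error. The p-values rest on the spread among these pools alone, and the labels do not say what the numbers stand for.

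Without the block no P450 gene was called at 20.1 µM raloxifene or at 405 µM resorcinol, against 0.0936% and 0.0306% of all genes tested. At an unadjusted p below 0.05 limma had 1 of 68 members at 20.1 µM and 1 of 69 at 405 µM, against 2.32% and 1.54% of all genes. With edgeR and with DESeq2 the count called was also 0 in both comparisons. Under the same unadjusted limit each had 1 member at 20.1 µM and 2 at 405 µM. The shares of all genes at that limit in these 2 methods are not given here. The test for any dose and the test for a trend over dose called 0 members for either compound, with 1 member at an unadjusted p below 0.05 in each of these 4 tests, against 0.541% to 2.37% of all genes. Of all genes, the share called was 0.078% and 0.0572% for raloxifene and 0.0409% and 0.0715% for resorcinol, the any-dose test first in each pair. With the block, 2 members were called higher at 405 µM, cyp2k6 and cyp2k18, against 0.327% of all genes. None was called at 20.1 µM, where the share of all genes was 1.26%.

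The gene with the largest change at both highest doses was cyp2k6 (ENSDARG00000098995). In zebrafish its enzyme hydroxylates lauric acid and activates the mould toxin aflatoxin. At 405 µM resorcinol its normalized counts were 8.003, 40.7, 21.4, 10.1 and 20.6 in replicates 1 to 5, against 4.98, 5.27, 9.53, 0 and 3.05 in the control pools. The dosed pool was above the control pool of the same number in 5 of 5 pairs, although the lowest dosed pool lay inside the control range. The means were 20.2 ± 13.0 in dosed pools and 4.56 ± 3.48 in control pools (SD, n = 5 each), from 12 to 46 reads and 0 to 9 reads per library.

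At 405 µM the log2 change of cyp2k6 was 2.06, or 4.17-fold higher, with a standard error of 0.59 without the block and 0.46 with it. The limma adjusted p was 1.00 without the block and 0.0426 with it. The call held without replicate 1 (adjusted p = 0.0231) and was lost without replicate 2, 3, 4 or 5, with adjusted p between 0.0742 and 0.289. It was also lost when the 1 deep library was left out (adjusted p = 0.0948), with a log2 change of 2.11. At 40.5 µM the 5 pools had 16.5, 16.5, 13.2, 19.7 and 17.1, all above the highest control pool, for a log2 change of 2.00 that missed the threshold with the block (limma adjusted p = 0.130).

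Over the resorcinol series cyp2k6 averaged 4.56, 6.07, 9.07, 11.5, 16.6 and 20.2 from the control to 405 µM. Treating the 6 groups as equal steps, its level increased by 0.45 log2 per step with a standard error of 0.078 (block, limma adjusted p = 0.00209, and 0.137 without the block). This trend passed in each of the 5 fits that left out 1 replicate number, with adjusted p between 0.00252 and 0.0332. It also passed without the deep library (adjusted p = 0.00512) and without the replicate 3 pools at 4.05 and 40.5 µM (adjusted p = 0.00161). The labels of these replicate 3 pools had been doubted earlier from levels of other genes, which are not given here. The trend test called 3 P450 genes with the block, 2 of them rising and 1 falling with dose, against 0.623% of all genes.

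In the raloxifene table cyp2k6 had 4.55, 21.2, 17.4, 55.5 and 14.2 at 20.1 µM, against 2.83, 8.85, 5.95, 10.1 and 0 in the control pools. The dosed pool was higher in 5 of 5 pairs, and replicate 4 was the highest pool in both groups. The means were 22.6 ± 19.4 and 5.55 ± 4.18 (SD, n = 5 each), from 4 to 67 reads in dosed libraries and 0 to 12 reads in control libraries. The log2 change was 1.88 with a standard error of 0.51 in the block, and its limma adjusted p was 0.0687 with the block and 1.00 without it. With edgeR and the same block the adjusted p was 0.0220. At 2.01 µM the pools had 15.5, 19.5, 11.05, 30.5 and 12.3, all above the highest control pool, for a log2 change of 1.84 (block, limma adjusted p = 0.238). The 3 lower doses had log2 changes of 0.90, 0.02 and 0.92 in order of rising dose, so the change was not steady below 2.01 µM. The trend over dose was 0.37 log2 per step with a standard error of 0.087, called with the block (limma adjusted p = 0.0203) and not without it (0.680). It was the 1 member called in that test, against 1.38% of all genes, and it was lost without replicate 2, 4 or 5, with adjusted p between 0.0714 and 0.135.

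**Figure D1:**
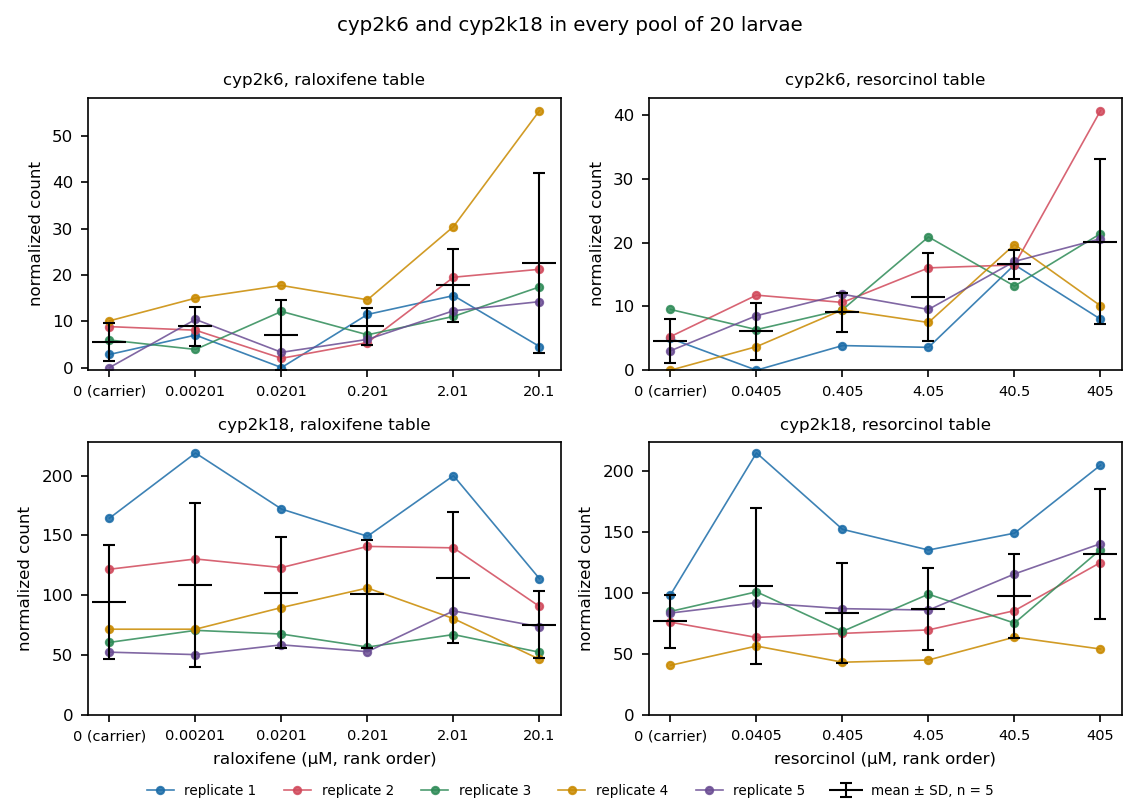
Normalized counts of cyp2k6 (top) and cyp2k18 (bottom) in every pool, with the control and the 5 doses of each compound in rank order on the x axis. Coloured lines join pools with the same replicate number and black marks are means ± SD (n = 5). For cyp2k6 all pools at 2.01 µM raloxifene and at 40.5 µM resorcinol lie above the control pools, and for cyp2k18 each pool at 405 µM lies above the control pool of its own number.

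The second member called at 405 µM was cyp2k18 (ENSDARG00000104593), which lies in the same chromosomal cluster as cyp2k6, at its other end. Its normalized counts at 405 µM were 204, 125, 135, 53.9 and 140, against 98.3, 75.9, 84.7, 40.5 and 83.3 in the control pools. The groups overlapped, but the dosed pool was higher in 5 of 5 pairs. The means were 132 ± 53.6 in dosed pools and 76.5 ± 21.7 in control pools (SD, n = 5 each), for a log2 change of 0.71 or 1.64-fold. Its standard error was 0.15 with the block, and its limma adjusted p was 0.0217 with the block and 1.00 without it. The call held without replicate 4 (adjusted p = 0.0306) and was lost without replicate 1, 2, 3 or 5, with adjusted p between 0.0659 and 0.177. It was lost as well without the deep library, at a log2 change of 0.73 (adjusted p = 0.0739).

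The trend of cyp2k18 over resorcinol doses was 0.10 log2 per step and was called with the block (limma adjusted p = 0.0439). It was lost in each of the 5 fits that left out 1 replicate number, with adjusted p between 0.0679 and 0.342, and without the deep library (0.0864). In the raloxifene series the means of cyp2k18 were 108, 102, 101 and 115 at the 4 lower doses in rising order, against 94.1 in the control. Their log2 changes were 0.13, 0.14, 0.11 and 0.30, with 3, 5, 3 and 5 of 5 pairs higher, and none was called. At 20.1 µM the pools had 114, 90.6, 52.3, 46.4 and 73.6, against 164, 122, 60.5, 71.5 and 52.4 in the control pools. That log2 change of -0.26, lower in 4 of 5 pairs, was not called (block, limma adjusted p = 0.541).

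Gene order came from the RefSeq annotation of GRCz12tu, used for nothing else. There cyp2k18, cyp2k20, cyp2k19, cyp2k21, cyp2k17, cyp2k16, cyp2k8 and cyp2k6 lie in this order on 1 chromosome, with the called pair at the ends of this run. The member cyp2k31 was not matched by name, so its place is not known. Up to 5 other protein-coding genes were allowed between successive members of such a cluster. The 6 cyp2k genes between the called pair gave no call. Their log2 changes at 405 µM ran from -0.33 for cyp2k17 to 0.51 for cyp2k21, with 0.44 for cyp2k19, 0.24 for cyp2k8, 0.19 for cyp2k16 and 0.01 for cyp2k20. At 20.1 µM all 6 were below 0, from -0.93 for cyp2k20 to -0.09 for cyp2k21, beside the 1.88 of cyp2k6. The cyp2k genes are close copies, and how reads that fit several of them were counted is not given in the sources used here, so the division of reads among them is uncertain.

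**Figure D2:**
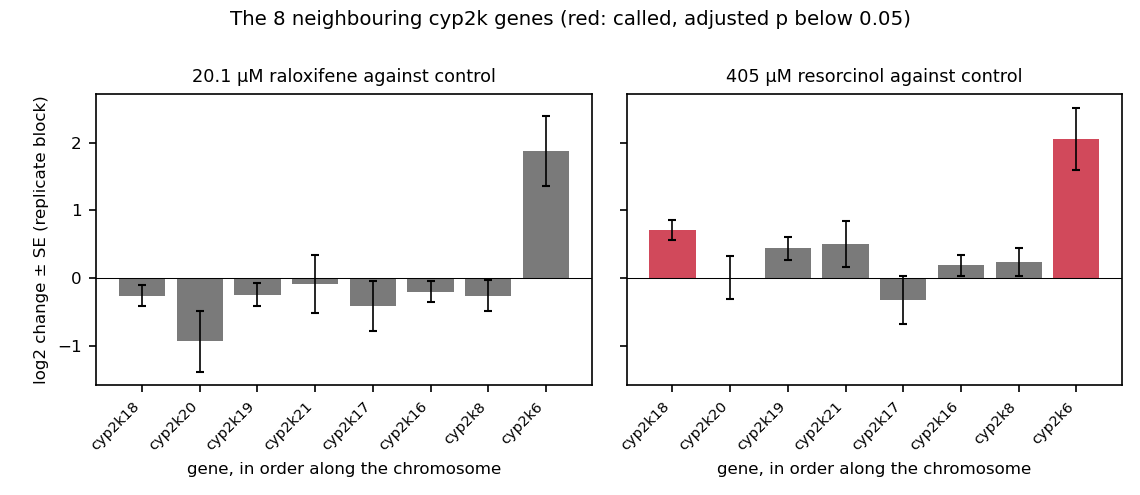
Log2 change ± standard error (block) of the 8 neighbouring cyp2k genes, in order along the chromosome, at 20.1 µM raloxifene and 405 µM resorcinol. Red bars were called: cyp2k18 (0.71) and cyp2k6 (2.06) at 405 µM, while the 6 cyp2k genes between them lie from -0.33 to 0.51.

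Family 2, whose enzymes act on foreign compounds and fatty acids, was the largest group, with 39 members of which 33 were tested for resorcinol and 32 for raloxifene. At 405 µM 23 of 33 lay above 0 with a median of 0.20 log2, and 8 had an unadjusted p below 0.05 with the block, all of them higher. At 20.1 µM 10 of 32 lay above 0 with a median of -0.13, and 3 had an unadjusted p below 0.05, of which 2 were higher and 1 lower. The shares of all genes at this limit are given below with the whole superfamily. The 8 of 33 lay above that share at 405 µM, and the 3 of 32 lay under it at 20.1 µM. Next to the called pair, the highest members at 405 µM were cyp2ae1 with 0.67 (13.7 ± 4.4 against 9.0 ± 5.5 in controls) and cyp2p9 with 0.64 (45.6 ± 25.1 against 27.5 ± 13.4). Both were higher in 5 of 5 pairs, and neither was called. The lowest at 20.1 µM were cyp2k20 with -0.93 (4.1 ± 1.9 against 8.5 ± 2.1) and cyp2aa11 with -0.70 (14.2 ± 11.01 against 21.8 ± 14.3), each lower in 4 of 5 pairs. The highest after cyp2k6 at 20.1 µM was cyp2aa7 with 0.45, whose block adjusted p in limma was 0.341. The gene cyp2ad3, a fish relative of the mammalian CYP2J enzymes, had 1856 ± 490 at 20.1 µM against 1902 ± 578 in controls (log2 -0.02), and 2268 ± 478 at 405 µM against 1964 ± 302 (log2 0.20, higher in 5 of 5 pairs, block adjusted p = 0.392).

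Family 1 holds the best known targets of the aryl hydrocarbon receptor, and none of its 4 tested members was called for either compound. CYP1A1 (ENSDARG00000098315), which oxidizes polycyclic aromatic compounds and is the usual marker of that receptor's activation, had 64.9, 83.8, 50.6, 247 and 48.7 at 20.1 µM raloxifene, against 36.8, 56.4, 44.6, 238 and 38.2 in controls. It was higher in 5 of 5 pairs with a log2 change of 0.39 (block, limma adjusted p = 0.263). The 4 lower doses had log2 changes of 0.53, 0.38, 0.44 and 0.55 in order of rising dose, so the change did not grow with dose. Replicate 4 was the highest pool in each of the 6 groups, and without replicate 4 in all of them the log2 change at 20.1 µM was 0.47 (block, limma adjusted p = 0.213).

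At 405 µM resorcinol CYP1A1 had 87.6, 164, 156, 63.1 and 292, against 72.2, 101, 112, 72.7 and 288 in controls. That was a log2 change of 0.25 with 4 of 5 pairs higher (block, limma adjusted p = 0.587), and of 0.31 when replicate 5 was left out of every group (block, limma adjusted p = 0.516). Of the other members, cyp1d1 changed by 0.12 at 20.1 µM and 0.20 at 405 µM. The median of the 4 members was 0.18 and 0.16. It includes cyp1c1 and cyp1c2, whose changes are not given singly here.

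Family 3 acts on drugs and steroids and had 5 tested members, none of them called. The gene cyp3a65, an enzyme of gut and liver, had 1639 ± 761 at 20.1 µM against 2330 ± 1516 in controls, lower in 3 of 5 pairs (log2 -0.40, block, limma adjusted p = 0.210). At 405 µM it had 3587 ± 2302 against 3276 ± 2819 (log2 0.23). The family median was -0.28 at 20.1 µM and 0.23 at 405 µM, where cyp3c2 was the lowest member (-0.27).

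Family 4, which hydroxylates the end of fatty acid chains, had 3 tested members and no call. One of its 2 CYP4V2 genes (ENSDARG00000062132) was lower in 5 of 5 pairs at 20.1 µM (19.6 ± 30.5 against 25.9 ± 33.8 in controls, log2 -0.78) and higher in 4 of 5 pairs at 405 µM (46.04 ± 42.4 against 37.6 ± 50.2, log2 0.69). The block adjusted p in limma was 0.394 and 0.261. The remaining tested member, cyp4t8, changed by -0.09 and -0.11.

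**Figure D3:**
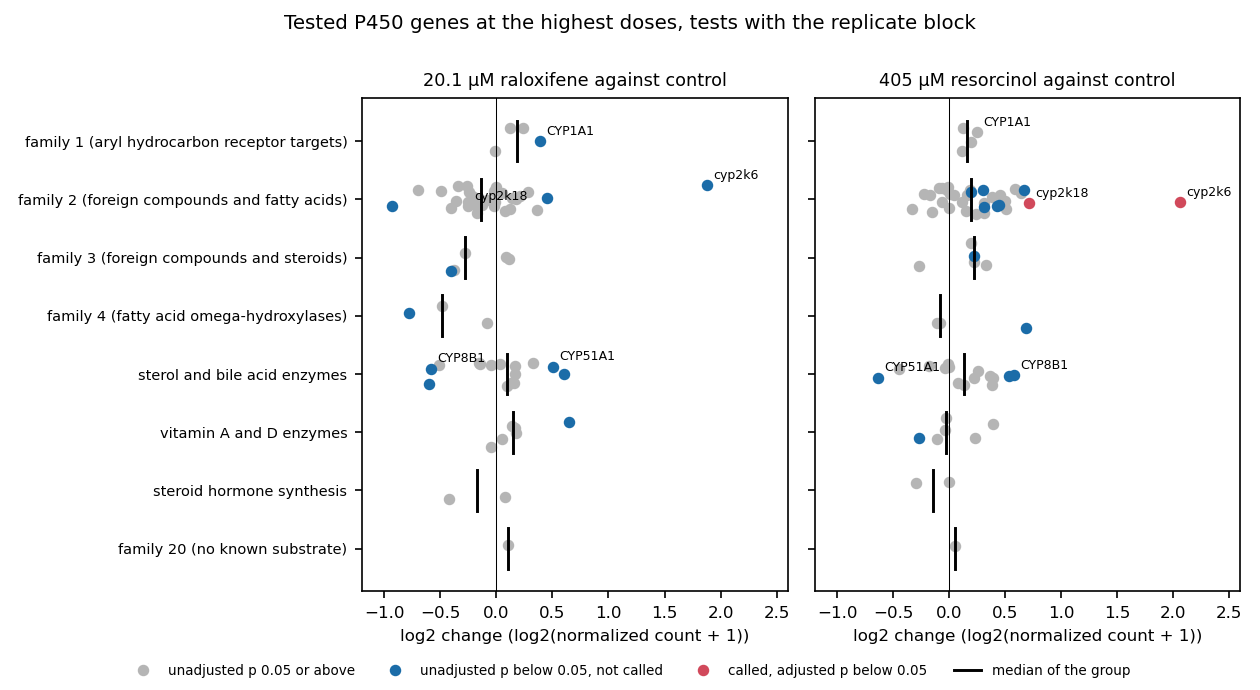
Log2 change of every tested P450 gene at 20.1 µM raloxifene (left) and 405 µM resorcinol (right), grouped by role down the page, with vertical bars at group medians. Red points were called with the block, which happened for cyp2k6 and cyp2k18 at 405 µM, and blue points had an unadjusted p below 0.05 without being called.

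Among enzymes of endogenous substrates, sterol and bile acid enzymes had 15 tested members of 18, with 9 of 15 above 0 for each compound at the highest dose and medians of 0.09 and 0.13. CYP51A1 (ENSDARG00000042641), the lanosterol demethylase of cholesterol synthesis, was the member that fell with resorcinol dose. At 405 µM it had 132, 77.9, 175, 59.8 and 313, against 131, 189, 214, 77.5 and 752 in controls. The groups overlapped, 4 of 5 dosed pools were below the control pool of their number and replicate 1 was level with it. The means were 152 ± 101 in dosed pools and 273 ± 273 in control pools (SD, n = 5 each).

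The log2 change of CYP51A1 at 405 µM was -0.63 with a standard error of 0.16 in the block, which missed the threshold (limma adjusted p = 0.0917). Without replicate 5, whose control pool was the highest of all, the change was -0.48 (block, limma adjusted p = 0.343). Over the resorcinol series it fell by 0.12 log2 per step with a standard error of 0.027 and was called with the block (limma adjusted p = 0.0252) but not without it (1.00). The trend held without replicate 1 or 4, with adjusted p of 0.0345 and 0.0401. It was lost without replicate 2, 3 or 5, with adjusted p between 0.0641 and 0.276. In the raloxifene table CYP51A1 had 190, 227, 119, 220 and 193 at 20.1 µM, against 254, 87.4, 83.3, 187 and 107 in controls. It was higher in 4 of 5 pairs with a log2 change of 0.51, which was not called (block, limma adjusted p = 0.388).

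CYP7A1, the rate-limiting enzyme of bile acid synthesis, and CYP8B1, which sets how much of the product is cholic acid, were both below their controls at 20.1 µM raloxifene and above them at 405 µM resorcinol, without a call at either dose. At 20.1 µM raloxifene CYP7A1 had 84.6 ± 57.3 against 150 ± 149 in controls (log2 -0.60, lower in 4 of 5 pairs, block adjusted p = 0.290). At 405 µM resorcinol it had 265 ± 185 against 185 ± 158 (log2 0.53, higher in 5 of 5 pairs, block adjusted p = 0.344). The 1 tested CYP8B1 gene (ENSDARG00000053068) had 12.5, 29.1, 31.4, 89.5 and 20.2 at 20.1 µM, against 22.7, 27.7, 48.6, 180 and 30.2 in controls, lower in 4 of 5 pairs (log2 -0.58, block adjusted p = 0.189). The other 4 raloxifene doses lay above the control, with log2 changes of 0.38, 0.17, 0.22 and 0.31 in order of rising dose. CYP8B1 passed the any-dose test with the block (limma adjusted p = 0.0418) and not without it (1.00). It was 1 of 2 members called there, against 1.83% of all genes. Leaving out any 1 replicate number ended this call, with adjusted p between 0.0707 and 0.186.

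Of the other sterol enzymes, CYP7B1, an oxysterol hydroxylase, was lower in 5 of 5 pairs at 405 µM (21.8 ± 13.6 against 28.8 ± 13.8 in controls, log2 -0.45). One CYP27A1 gene (ENSDARG00000069186), a sterol side-chain hydroxylase, was higher in 4 of 5 pairs at 20.1 µM (40.8 ± 14.2 against 28.8 ± 14.4, log2 0.61). The sterol hydroxylase gene cyp27a1.1 changed by 0.16 and 0.26. None of these was called.

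Vitamin A and D enzymes had 6 tested members of 7. CYP24A1 (ENSDARG00000103277), which breaks down active vitamin D, was the second member called in the any-dose test of raloxifene with the block (limma adjusted p = 0.0497, and 1.00 without it). Its means ran 535, 399, 460, 455, 516 and 581 from the control to 20.1 µM, where its pools had 426, 408, 342, 1324 and 406, against 333, 393, 368, 1310 and 272 in controls. The log2 change was 0.18 at 20.1 µM and -0.30 at 0.00201 µM, so the doses differed in sign from each other and none alone was called. From 0.00201 to 2.01 µM CYP24A1 was lower in 5, 5, 4 and 3 of 5 pairs, and at 20.1 µM it was higher in 4 of 5. Replicate 4 was the highest pool in each of the 6 groups, and without replicate 4 the log2 change at 20.1 µM was 0.22 (block, limma adjusted p = 0.496). Leaving out any 1 replicate number ended the any-dose call, with adjusted p between 0.0869 and 0.212. For resorcinol the any-dose test called no member with the block, where 0.225% of all genes were called. At an unadjusted p below 0.05 it had 6 of 69 members (8.70%), against 7.001% of all genes. CYP2R1, which makes the circulating form of vitamin D, had 16.8 ± 10.0 at 20.1 µM against 10.3 ± 6.5 in controls (log2 0.65, higher in 3 of 5 pairs, not called).

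Steroid hormone synthesis was represented by CYP17A1 and cyp11c1 alone among 6 members. The enzyme cyp11c1, which completes cortisol in fish, had 24.6 ± 19.8 at 20.1 µM against 32.2 ± 17.5 in controls (log2 -0.42, not called). At 405 µM its mean and its log2 change differed in sign, with 27.1 ± 30.8 against 25.7 ± 13.2 in controls and a log2 change of -0.30 that was not called. Replicate 1, the deep library, had 82.0 and the other 4 dosed pools 9.73 to 16.8, and 4 of 5 pairs were lower. CYP17A1 changed by 0.07 and 0.00. CYP20A1, the 1 member of its family and an enzyme with no known substrate, had 135 ± 14.9 at 20.1 µM against 126 ± 18.1, and 129 ± 17.2 at 405 µM against 125 ± 18.6.

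**Figure D4:**
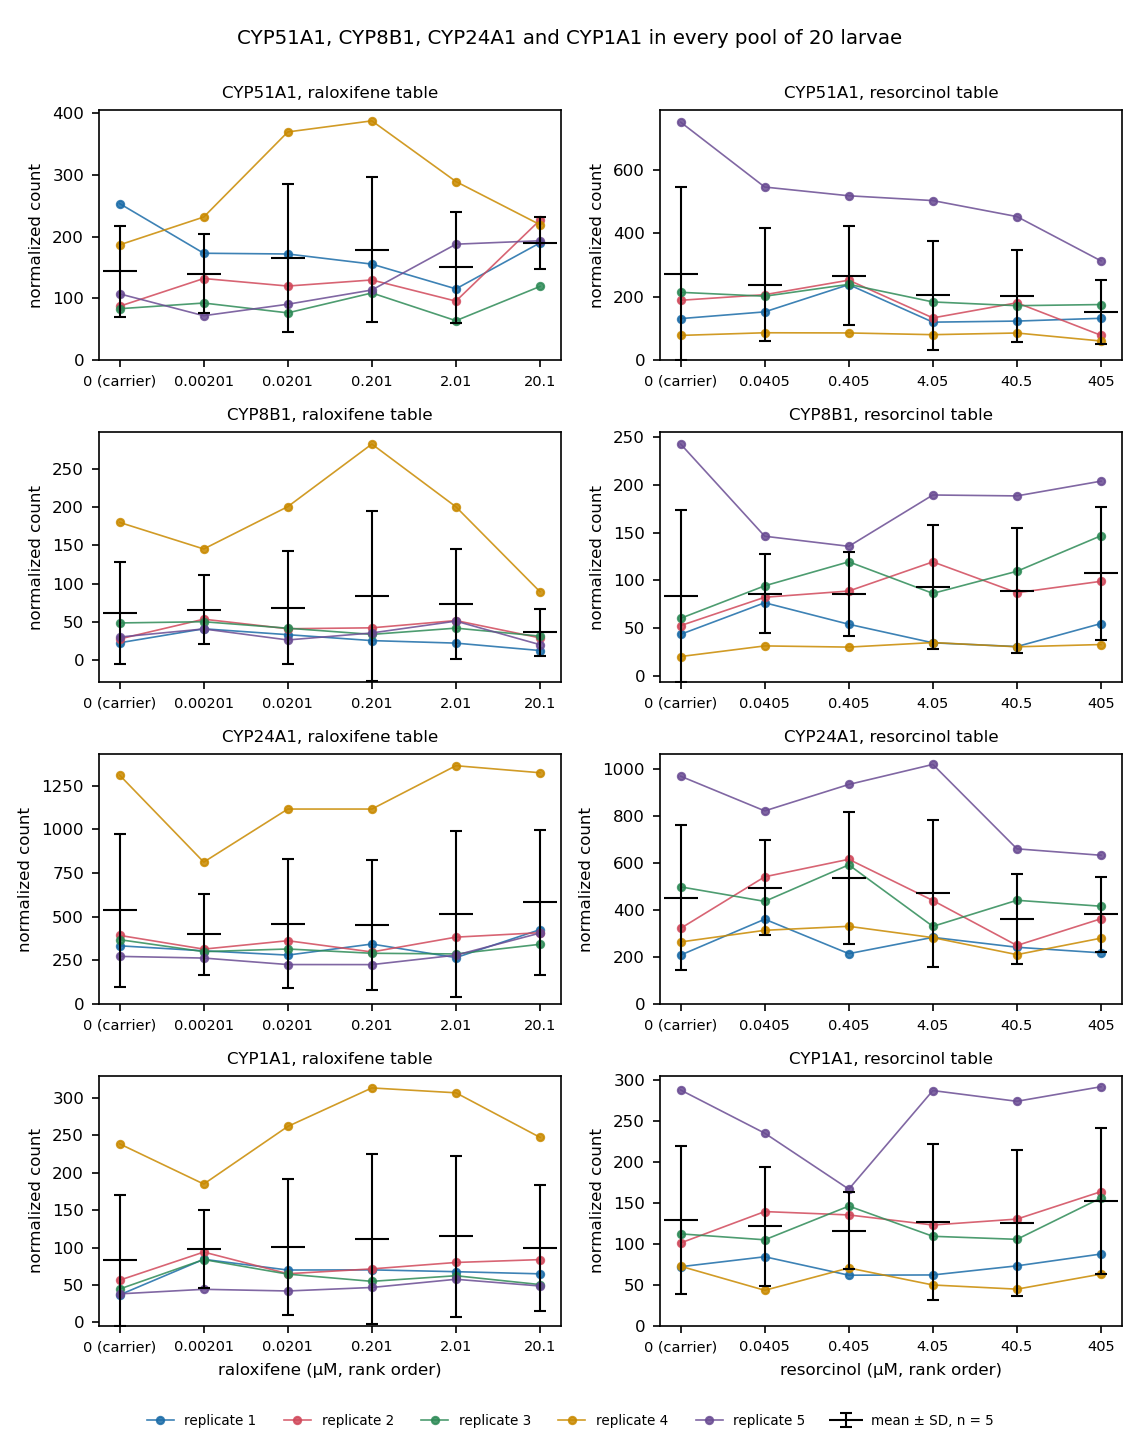
Normalized counts of CYP51A1, CYP8B1, CYP24A1 and CYP1A1 in every pool, with the control and the doses in rank order on the x axis. Coloured lines join pools with the same replicate number and black marks are means ± SD (n = 5). Raloxifene replicate 4 and resorcinol replicate 5 are the highest lines of CYP8B1, CYP24A1 and CYP1A1 in most groups.

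Across the superfamily the changes were small beside those of cyp2k6. The median log2 change over the 68 members was 0.08, 0.03, 0.11, 0.12 and -0.02 from 0.00201 to 20.1 µM raloxifene, with 48, 39, 48, 50 and 31 members above 0. Over the 69 members it was 0.19, 0.10, 0.09, 0.11 and 0.16 from 0.0405 to 405 µM resorcinol, with 52, 49, 43, 48 and 45 above 0. The median of all genes was -0.01 at 20.1 µM and 0.00 at 405 µM. The doses of a compound share their control pools, so medians of the same sign at several doses are not separate evidence. The counts above 0 stand without the share of all genes above 0, and the medians at the lower doses without the median of all genes. They therefore do not set the P450 genes apart from other genes. With the block, 14 of 69 members (20.3%) had an unadjusted p below 0.05 at 405 µM, 12 of them higher and 2 lower, against 10.8% of all genes. At 20.1 µM the count was 11 of 68 (16.2%), 6 higher and 5 lower, against 12.3% of all genes.

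At the lower doses no member was called by limma or edgeR as set up above, with or without the block. In limma with the block the share of all genes called was 0.0987%, 0.0156% and 0.0208% at 0.00201, 0.201 and 2.01 µM raloxifene and 0.0664% at 40.5 µM resorcinol, and it was 0 at the other 4 doses. Members at an unadjusted p below 0.05 in that fit numbered 8, 3, 9 and 12 from 0.00201 to 2.01 µM and 8, 6, 6 and 9 from 0.0405 to 40.5 µM. As shares these were 11.8%, 4.41%, 13.2% and 17.6% of members for raloxifene, against 13.9%, 5.26%, 9.69% and 9.86% of all genes. For resorcinol they were 11.6%, 8.70%, 8.70% and 13.0%, against 8.60%, 2.95%, 3.89% and 5.75% of all genes. In edgeR with the block they numbered 9, 2, 13 and 9, and 7, 2, 4 and 7, against 4.77% to 12.5% and 2.32% to 6.58% of all genes.

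Genes that work with the P450 enzymes were described from lists drawn up with earlier results of these data known. Of 13 tested electron donors and cytochrome b5 genes none was called with the block at either highest dose, with medians of 0.03 at 20.1 µM and 0.12 at 405 µM. At an unadjusted p below 0.05 in that fit, 2 of the 13 were higher at 20.1 µM and 4 at 405 µM, and 0 were lower. The shares of all genes at this limit are those given above for the highest doses. Of 11 genes of the aryl hydrocarbon receptor pathway and 17 nuclear receptors none was called, with medians between -0.04 and 0.03. Of 15 haem genes, HMOX1, the oxygenase that breaks haem down, was called at 405 µM with a log2 change of 1.502 (block standard error 0.18, limma adjusted p = 0.00012, and 0.0904 without the block). Of 12 bile acid and steroid partners, FABP6, the ileal carrier of bile acids, fell at 20.1 µM by 0.93 log2 (block standard error 0.15, limma adjusted p = 0.000489, and 1.00 without the block). The share of all genes called with the block was 0.327% at 405 µM and 1.26% at 20.1 µM.

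Some markers of organs that express these enzymes were called at the highest doses, and only with the block. Of 15 enterocyte markers 1 lay above 0 at 20.1 µM and 3 were called lower with the block, FABP6 among them, against 1.26% of all genes called. Their median log2 change was -0.43, with 7 of 15 lower at an unadjusted p below 0.05, and their summed level was 7119 to 16665 in dosed pools against 9238 to 26824 in control pools. At 405 µM 9 of 15 lay above 0 and none was called, with sums of 8994 to 40313 against 8710 to 42757. All 7 markers of exocrine pancreas lay above 0 at 20.1 µM, where none was called, and at 405 µM, where 1 was called with the block, against 0.327% of all genes. Their medians were 0.70 and 1.03 log2, with 6 of 7 and 7 of 7 at an unadjusted p below 0.05 in the block, and with sums at 405 µM of 5819 to 20224 against 2700 to 15961. At 20.1 µM these sums were 1837 to 24388 against 1239 to 14433. The 12 hepatocyte markers had no call and medians of 0.03 at 20.1 µM and 0.07 at 405 µM. Their sums were 11928 to 99338 at 20.1 µM against 8800 to 92660 in control pools, and 15166 to 96897 at 405 µM against 12209 to 116190. Markers of brain (5 tested), endothelium (3) and steroid-making cells (2) had no call at either dose. Without the block no marker of any list was called at 20.1 or 405 µM. At an unadjusted p below 0.05 that fit had 3 of 15 enterocyte markers at 20.1 µM, all lower, and 0 of 7 pancreas markers at either dose. The shares of all genes at this limit with the block are those given above for the highest doses. No list had a marker at 0 in every library. The part of these organs in the P450 values was not tested.

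The P450 genes, like the genes tested as a whole, differed more between replicate numbers than between doses. For the median member, the replicate number held 73.6% of the variance in the raloxifene table and 72.1% in the resorcinol table, against 5.88% and 6.13% for the group. Over all genes the medians were near these, with 72.7% and 66.4% for the replicate number and 5.75% and 6.18% for the group. With the group in the model, the replicate number was called in limma for 61 of 68 members in the raloxifene table and 66 of 69 in the resorcinol table, against 92.4% and 88.3% of all genes. The difference between the highest and the lowest replicate set had a median of 1.62 log2 over members for raloxifene and 1.502 for resorcinol, against 0.97 and 0.87 over all genes. It was over 2-fold for 49 of 68 members (72.1%) and 49 of 69 (71.0%), against 48.4% and 41.8% of all genes. Raloxifene replicate 4 was the highest set for 41 of 68 members (60.3%, against 36.6% of all genes). Resorcinol replicate 5 was the highest for 37 of 69 (53.6%, against 27.3%), and replicate 4 the lowest for 38 of 69 (55.1%, against 20.3%).

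The member with the largest F for the replicate number was cyp2ad2 in both tables. Its mean over the 6 groups was 760 in raloxifene replicate 4, against 109 to 139 in the other 4 sets. It was 849 in resorcinol replicate 5 and 125 in replicate 4. The fish gene cyp2n13 ran the same way, with 860 in raloxifene replicate 4 and 868 in resorcinol replicate 5, and so did cyp3a65, with 5060 and 6546. The third gene with a large F in the raloxifene table, cyp2p10, ran the opposite way, with 33.6 in replicate 4 and 147 in replicate 1. CYP24A1 had 1174 in raloxifene replicate 4, against 279 to 360 in the others.

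Among roles, family 4 deviated most in raloxifene replicate 4, with a median of 2.23 log2 above the mean of the sets, followed by family 3 with 1.32 and family 2 with 0.81. The median over the 6 vitamin A and D enzymes lay between -0.19 and 0.15 in each of the 10 sets. Among them CYP24A1 differed 4.23-fold between its highest and lowest set in the raloxifene table and 3.304-fold in the resorcinol table, and CYP2R1 4.08-fold and 6.47-fold. The summed level of the 12 hepatocyte markers was 99246 in raloxifene replicate 4, against 11544 to 17200 in the other sets, and 95251 in resorcinol replicate 5, against 15624 in replicate 4. In the same sets, enterocyte sums were 29392 against 10565 to 18523, and 36868 against 9627. Exocrine pancreas sums were 15876 against 1413 to 11347, and 16997 against 2480. Sums of steroid-making cells were also highest in these sets, and endothelium sums were neither highest nor lowest. Brain sums ran the opposite way, with 13298 against 19232 to 20512, and 14270 against 23675. The part of these marker sums in the P450 values was not tested. Control and dosed pools of a number are averaged here, so these values describe the pools and not an effect of either compound.

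**Figure D5:**
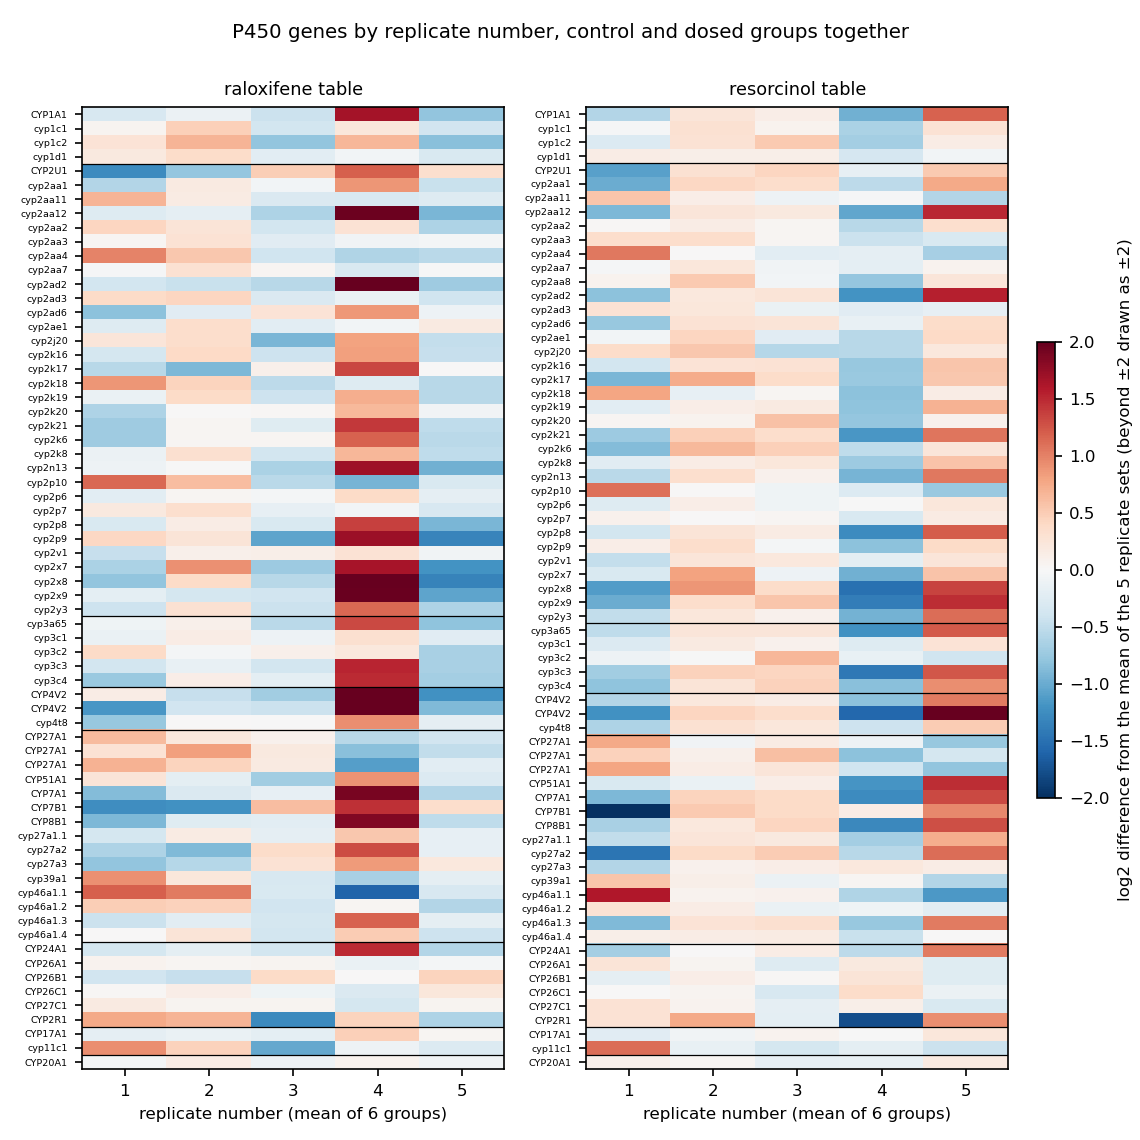
Log2 difference of each tested P450 gene (rows, grouped by role with black lines between roles) from the mean of the 5 replicate sets, for replicate numbers 1 to 5 (columns), in the raloxifene (left) and resorcinol (right) tables. Raloxifene replicate 4 is the highest set for 41 of 68 members and resorcinol replicate 5 for 37 of 69, while replicate 4 of resorcinol is the lowest for 38.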

How the data were processed

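The deposited values are normalized counts per gene (a signal), with 1 table per compound, made by the authors from reads of stranded libraries. Per the submitters' processing notes, reads went through cutadapt, STAR and DESeq2 on GRCz11, and per the labels' protocols each library held messenger RNA of 1 pool. The counting tool, its strand setting, the annotation release and tool versions are not stated in the sources used here. Dividing each library by its smallest step gave whole reads for 100% of values (tolerance 0.1 read), so the deposited values are counts divided by 1 factor per library. The compounds were normalized separately, and their doses and carriers differ, so no test was made between them.

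Symbols came from a reference name table, which named 24960 of 27281 genes in the raloxifene table and 25126 of 27488 in the resorcinol table. RefSeq gene order (GRCz12tu) matched 72 of 85 members by name. The members, role groups, lists and tests were chosen with earlier results of these data known. The main fit was limma 3.58.1 with a trend (R 4.3.3) on log2(normalized count + 1) over all 30 libraries of a compound with 6 group means, for genes of at least 10 in at least 5 libraries, with Benjamini-Hochberg adjustment over all genes tested (19241 and 19583). The any-dose test is an F test over 5 coefficients, and the trend is a linear contrast over the 6 groups in equal steps. The scripts were tested on simulated data.

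Alternatives were edgeR 4.0.16 and DESeq2 1.42.0 on the recovered counts, a pseudocount of 10, no filter, a minimum of 50, quantile normalization, only the 2 groups compared, each library left out and the replicate number as a block. On recovered counts without the block edgeR called 16 genes at 20.1 µM raloxifene and 5 at 405 µM resorcinol, and DESeq2 28 and 16. On the deposited normalized counts limma without the block called 18 and 6. Same-numbered libraries deviated together from their group means in all 75 pairs of each table, with correlations of at least 0.344 for raloxifene and 0.194 for resorcinol and medians of 0.761 and 0.591, against medians of -0.463 and -0.177 for different numbers. The numbers thus pair the samples, although the labels do not say what they share. Resorcinol replicate 3 at 4.05 and 40.5 µM had median same-number correlations of 0.559 and 0.498, inside the range of the other resorcinol libraries (0.263 to 0.839). An exchange of these 2 libraries would leave such correlations nearly unchanged, as both carry the same number. These values therefore do not settle the doubt about their labels.

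No 2 libraries of a group agreed within sampling noise. Genes named with values were every member called in any dose test, CYP1A1, cyp2k6 and cyp2k18, the 5 highest and 5 lowest changes at each highest dose, the most counted gene of each role, the 3 largest F values for the replicate number in each table and called partner genes. Genes such as CYP17A1, cyp2k8, cyp2k16, cyp2k19 and cyp2k21 are named beside them as neighbours or remaining members of a group. No sequences were used here.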

Additional observations from a re-analysis of the deposited data

Results flagged for a closer look

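The levels of 6 genes in 12 groups of 5 pools gave 72 sets of values, of which 26 held 1 pool far from the other 4, with Dixon's ratio above 0.71. For separate, normally distributed sets this limit is passed in about 1 in 20. These sets share their pools and replicate numbers, and the genes were chosen with results known, so 26 of 72 cannot be set against that rate. The 26 belonged to cyp2k18, CYP51A1, CYP8B1, CYP24A1 and CYP1A1, and cyp2k6 had none. The high pool was raloxifene replicate 4 or resorcinol replicate 5 in all but 1 of them, and the replicate number is a term of the fit with the block. The cause was not tested.

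CYP24A1 had its high pool in replicate 4 in all 6 raloxifene groups, with 1310 in the control, 812 at 0.00201 µM, 1116 at both 0.0201 and 0.201 µM, 1364 at 2.01 µM and 1324 at 20.1 µM, and in resorcinol replicate 5 at 4.05 µM with 1018. CYP8B1 had it in replicate 4 with 180 in the control, 145 at 0.00201 µM, 201 at 0.0201 µM, 283 at 0.201 µM, 201 at 2.01 µM and 89.5 at 20.1 µM, and in the resorcinol control replicate 5 with 243. For CYP1A1 replicate 4 was at 238 in the control, 262 at 0.0201 µM, 313 at 0.201 µM, 306 at 2.01 µM and 247 at 20.1 µM, and the resorcinol control replicate 5 at 288.

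CYP51A1 had a high pool in raloxifene replicate 4 at 0.201 µM (388) and in resorcinol replicate 5 in the control (752) and at 0.0405, 4.05 and 40.5 µM (547, 504 and 453). The exception by number was cyp2k18, whose replicate 1 pool at 0.0405 µM resorcinol had 215.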

How the results depend on the processing

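Counts of P450 genes called kept their main value, or stayed within 1.5 times of it, in 321 of 359 settings. A count of 0 that stayed 0 is among those kept. Of 323 values of single genes, 3 changed sign. Another 51 were called although the main fit, without the block, did not call that gene, so the calls depend on the fit. With the replicate block the counts moved to 2 for any dose and 1 for the trend of raloxifene (0 without it), and to 2 at 405 µM and 3 for the trend of resorcinol (0 without it). A pseudocount of 10 or quantile normalization gave 1 in the resorcinol trend without the block. Within the block, 20.1 µM raloxifene had 1 member with edgeR or a pseudocount of 10 and 0 to 1 when a replicate number was left out. The any-dose test of raloxifene had 0 with no filter or quantile normalization and 0 to 1 without a replicate number, and its trend 0 at a minimum of 50, which removes cyp2k6, and 0 to 2 without a replicate number. At 405 µM there was 1 member at a minimum of 50, with no filter or with only the 2 groups. There were 0 to 1 without a replicate number and 0 without the deepest library. Leaving out the deepest library or both replicate 3 libraries was chosen after seeing the data. So were changes of pseudocount, filter, normalization or groups within the block for the dose tests. The plain block, edgeR with it and leaving out a replicate number were planned. Quantile normalization gave 1 at 40.5 µM. The any-dose test of resorcinol had 1 with a pseudocount of 10, with quantile normalization or without both replicate 3 libraries, and its trend had 1 to 2 without a replicate number. The replicate number was called for 40 members of raloxifene at a minimum of 50, since fewer genes are then tested, against 61. The cause of the other moves was not tested. Apart from the plain block, these counts stand without the share of all genes called in the same setting. They therefore do not set the P450 genes apart from other genes.

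The sign changes came from leaving out single pools in the fit without the block. The log2 change of CYP1A1 at 20.1 µM ran from -0.016 without the dosed replicate 4 to 0.87 without the control replicate 4, and at 405 µM from -0.031 without the dosed replicate 5 to 0.59 without the control replicate 5. That of CYP24A1 at 20.1 µM ran from -0.17 without the dosed replicate 4 to 0.57 without the control replicate 4. These fits keep the partner of the pool left out, and without both pools of the number, in the block, the changes were 0.47, 0.31 and 0.22. Depth limits cyp2k6, whose control libraries held 0 to 12 reads.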
